A study of Homo sapiens with 6 samples.

Results

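RNA levels of 10 genes in signalling by leukaemia inhibitory factor (LIF) and interleukin-6 were described in cultures of SNU-398. The cultures carried a short hairpin RNA (shRNA) against SALL4 or a scrambled shRNA. SNU-398 is an established cell line from a human hepatocellular carcinoma. Receptor protein and activity of the pathway were not measured on these arrays. The genes are the receptor chains LIFR, IL6ST, OSMR, IL6R and CNTFR, the ligand LIF, the kinases JAK1 and JAK2, the transcription factor STAT3 and the feedback inhibitor SOCS3. They are 10 of 18404 genes with a probe set of their own on the arrays, and each was measured by 1 probe set, a group of probes summarised into 1 value. The set was assembled around LIFR, which was chosen by its intensities on these arrays: it was lower, with a wide spread, in cells with the SALL4 shRNA. The values of LIFR are therefore given as a description with no test, and the other 9 genes were listed for their place in the pathway.

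The receptors of this family share gp130, the product of IL6ST, which pairs with LIFR to form the LIF receptor, with OSMR to form an oncostatin M receptor, or with itself when interleukin-6 is bound to IL6R. CNTFR and IL6R bind their ligands but carry no signalling tail, whereas gp130, LIFR and OSMR hold Janus kinases that phosphorylate STAT3, and STAT3 induces SOCS3, which shuts the receptor off. In liver the pathway drives the acute phase response, and in mouse embryonic stem cells LIF acts through STAT3 to maintain the undifferentiated state. SALL4, the target of the hairpin, is a zinc finger protein that controls transcription in embryonic stem cells and in fetal liver.

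Affymetrix arrays measured total RNA of 3 cultures carrying the SALL4 shRNA and of 3 carrying the scrambled shRNA, which the labels call biological replicates. All 6 were SNU-398 cells grown in the same medium, and the labels do not say how many SALL4 hairpin sequences were used, nor the time after their introduction, and name no rescue. Effects of lower SALL4 and any other effects of the SALL4 shRNA cannot be told apart. Values are the deposited intensities on a linear scale, with a lowest value of 10. Differences are log2 intensity, SALL4 shRNA minus scrambled shRNA. They were tested with limma over 13325 genes whose mean log2 intensity was at least 5, with p-values adjusted by Benjamini-Hochberg over all of them and a threshold of 0.05. In that fit 220 genes passed, 1.65% of those tested, and the median difference of all genes was 0.018.

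SALL4 itself was at 121, 119 and 117 in the cells with the SALL4 shRNA, called knockdown cells below, against 284, 264 and 335 in the cells with the scrambled shRNA, called control cells. In limma the log2 difference was -1.30 ± 0.18 (SE; adjusted p 0.0108), and the intensity was 40.6% of the control. With no filter on dim genes limma gave SALL4 an adjusted p of 0.0946 and called 0 of 18404 genes. The 3 knockdown arrays were nearly equal in SALL4. On the second principal component, 20.1% of the variance, SALL4 shRNA replicate 2 (-23.6) and scrambled replicate 3 (-18.0) stood apart from the other 4 arrays (1.12 to 16.7). Defining markers of hepatocytes were dim, with albumin (ALB) at 12.1 ± 0.40 in knockdown cells and 11.2 ± 1.39 in control cells (SD, n = 3 each), and 5 of 9 hepatocyte markers measured lay below the filter. Of 7 blood cell markers measured, 2 (PTPRC and LYZ) were at the lowest value on all 6 arrays and 5 lay below the filter; the brightest, CD68, was at 153, 191 and 99 in knockdown cells, against 102, 129 and 95.9 in control cells. Of 6 fibroblast and stellate cell markers DCN, a matrix proteoglycan gene, fell by 1.25 on the log2 scale (limma adjusted p 0.0218). The other 5 did not pass and had both signs. COL1A2 was at 0.50, COL1A1 at 0.37, PDGFRB at 0.32, LUM at -0.084 and COL3A1 at -0.54. The summed intensity of the 6 ran from 1006 to 1368 in knockdown cells and from 1286 to 1444 in control cells. DCN kept the call without SALL4 shRNA replicate 3 and lost it without any other single array (limma adjusted p from 0.0511 to 0.0803). It also lost the call with no filter (limma adjusted p 0.118), with only genes at the lowest value on all arrays left out (0.0581), in the fit of all probe sets (0.0813), with the replicate block (0.0580) and without SALL4 shRNA replicate 2 and scrambled replicate 3 together (0.0958). None of the 6 was at the lowest value on all arrays, and their part in the values below was not tested. The summed levels of the blood cell, endothelial, hepatocyte and cholangiocyte markers overlapped between the groups, and 0 of those in the fit passed (1 at an unadjusted p under 0.05).

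The sequences around the annotated starts of LIFR, of its chromosomal neighbour OSMR and of STAT3 are shown because LIFR had the one negative and STAT3 the largest positive difference among the 10 genes, and OSMR lies beside LIFR with a difference of the other sign. They are RefSeq promoters of build GRCh38.p14, 250 bases before to 50 bases after each start, printed 5′ to 3′ on the strand of the gene. LIFR has 3 annotated starts on chromosome 5, in the windows chr5:38595356-38595655, chr5:38557418-38557717 and chr5:38556597-38556896, all on the minus strand. The window of OSMR is chr5:38845762-38846061 on the plus strand and that of STAT3 is chr17:42388393-42388692 on the minus strand. Capitals mark the letters TTCNNNGAA, a spacing that STAT proteins are known to bind and that reads the same on both strands.
LIFR, start farthest upstream: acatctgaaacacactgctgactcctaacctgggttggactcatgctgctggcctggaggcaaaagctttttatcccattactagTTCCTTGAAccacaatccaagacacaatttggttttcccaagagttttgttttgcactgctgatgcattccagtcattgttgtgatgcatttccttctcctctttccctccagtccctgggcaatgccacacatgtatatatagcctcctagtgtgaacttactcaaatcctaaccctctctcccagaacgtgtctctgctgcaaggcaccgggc
LIFR, middle start: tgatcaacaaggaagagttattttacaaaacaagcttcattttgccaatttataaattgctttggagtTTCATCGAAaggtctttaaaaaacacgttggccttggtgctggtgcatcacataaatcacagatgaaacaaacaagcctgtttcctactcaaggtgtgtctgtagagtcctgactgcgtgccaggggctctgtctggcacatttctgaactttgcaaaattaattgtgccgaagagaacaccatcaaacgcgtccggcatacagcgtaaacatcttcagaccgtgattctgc
LIFR, downstream start: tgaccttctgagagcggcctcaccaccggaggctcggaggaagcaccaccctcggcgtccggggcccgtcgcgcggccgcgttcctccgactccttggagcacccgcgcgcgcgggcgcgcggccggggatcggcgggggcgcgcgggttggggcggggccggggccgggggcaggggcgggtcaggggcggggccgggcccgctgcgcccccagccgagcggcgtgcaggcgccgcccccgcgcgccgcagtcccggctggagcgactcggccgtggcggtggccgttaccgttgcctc
OSMR: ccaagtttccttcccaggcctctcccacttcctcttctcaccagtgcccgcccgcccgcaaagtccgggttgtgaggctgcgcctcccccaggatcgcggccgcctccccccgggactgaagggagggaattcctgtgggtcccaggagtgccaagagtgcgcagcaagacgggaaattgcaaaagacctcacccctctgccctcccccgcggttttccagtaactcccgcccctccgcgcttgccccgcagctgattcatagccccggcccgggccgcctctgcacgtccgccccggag
STAT3: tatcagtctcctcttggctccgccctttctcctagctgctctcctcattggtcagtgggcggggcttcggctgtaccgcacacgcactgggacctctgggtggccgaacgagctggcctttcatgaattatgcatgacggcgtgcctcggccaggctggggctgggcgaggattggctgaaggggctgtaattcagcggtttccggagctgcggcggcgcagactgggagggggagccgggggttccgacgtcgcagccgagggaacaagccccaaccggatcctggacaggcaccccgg

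The letters were present once in each of the 2 upstream windows of LIFR, as TTCCTTGAA and TTCATCGAA, and not in its downstream window, which is 81.7% G and C. Of 17 windows at starts of 9 of the 10 genes, these were the 2 windows with a match, where 7.66% of 35116 promoter windows of the same length hold one. LIF had no entry in the promoter table. A match describes the letters in the window, and the array has 1 probe set for LIFR, which does not tell its starts apart.

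LIFR, the signalling receptor chain for LIF and partner of gp130, was at 91.4, 53.4 and 191 in the cells with the SALL4 shRNA, against 341, 259.9 and 312 in the cells with the scrambled shRNA. Every knockdown array was below every control array, and the knockdown arrays differed more among themselves than the control arrays did. The means were 112 ± 70.8 in knockdown cells and 304 ± 41.2 in control cells (SD, n = 3 each). The difference of the mean log2 values was -1.63, which corresponds to 32.3% of the control level. Array by array, the SALL4 shRNA replicates 1, 2 and 3 lay at -1.73, -2.50 and -0.67 relative to the control mean on the log2 scale, whereas the controls lay between -0.22 and 0.17. The SD of log2 LIFR was 0.92 over the knockdown arrays and 0.20 over the control arrays, a spread that was part of the choice of the gene. SALL4 had an SD of 0.020 over the same 3 knockdown arrays. In bulk RNA, fewer cells that express a gene and less RNA per cell cannot be told apart.

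**Figure D1:**
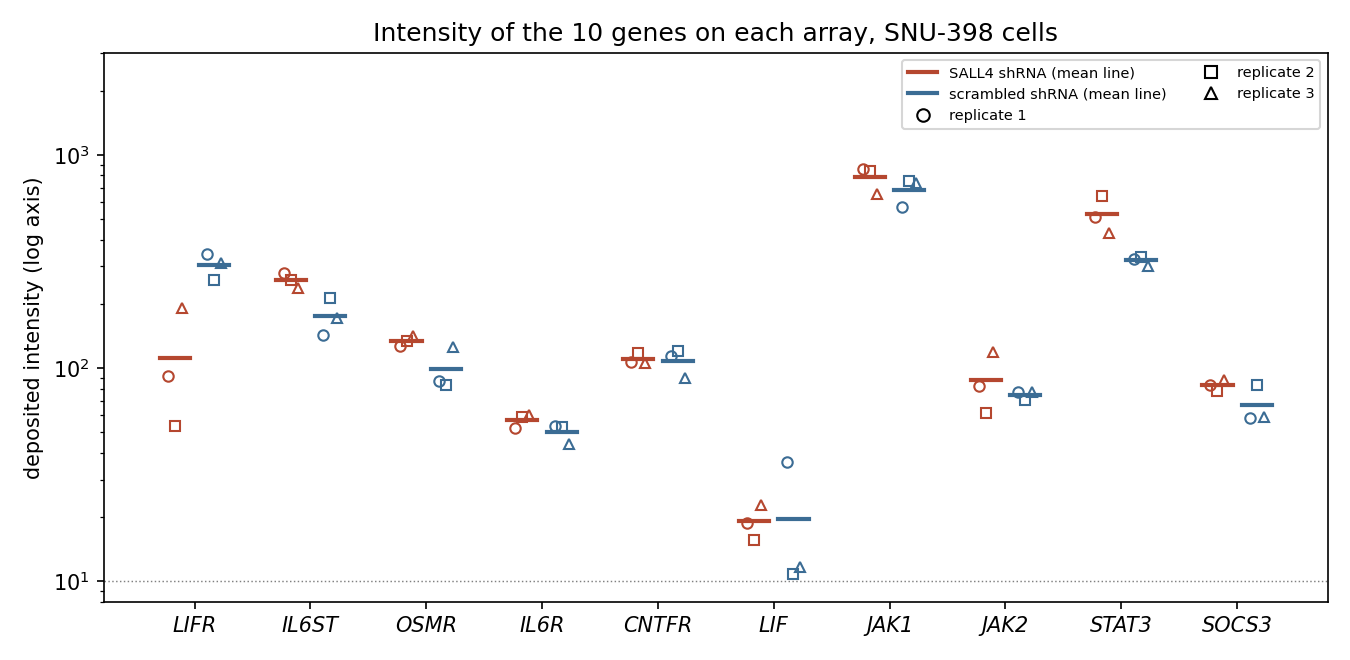
Deposited intensity (log axis) of the 10 genes on each array, with SALL4 shRNA in red on the left and scrambled shRNA in blue on the right of each pair; symbols are replicates, bars are group means and the dotted line is the lowest value, 10. LIFR is lower on all 3 SALL4 shRNA arrays, IL6ST, OSMR and STAT3 are higher on all 3, and the groups of the other 6 genes overlap.

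The other signalling chains of the family, IL6ST and OSMR, were higher on every knockdown array than on any control array, but neither passed the test. IL6ST, which encodes gp130, was at 280.4, 258 and 238 in knockdown cells, against 142, 212 and 172 in control cells. The groups did not overlap, with means of 259 ± 21.1 in knockdown cells and 175 ± 34.8 in control cells (SD, n = 3 each). Its log2 difference of 0.58 ± 0.20 (SE) did not pass (limma adjusted p 0.165). OSMR, the chain that pairs with gp130 for oncostatin M, was at 127, 134 and 141 in knockdown cells, against 86.8, 83.1 and 126 in control cells. Its groups were separated by less than 1 unit, since scrambled replicate 3 came close to the knockdown arrays. The log2 difference of OSMR was 0.47 ± 0.21 (SE) and the limma adjusted p was 0.279. Groups that did not overlap with the knockdown higher were seen in 11.5% of all genes in the fit, and in either direction in 22.2%.

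The balance between the partner chains followed from these values and from the fall for which LIFR was picked. Relative to control cells, IL6ST over LIFR was 4.62-fold higher in knockdown cells, or 2.21 on the log2 scale, with single knockdown arrays from 1.13 to 3.08 and control arrays from -0.45 to 0.51 around the control mean. OSMR over LIFR was 4.28-fold higher, with knockdown arrays from 1.21 to 2.97 and control arrays from -0.33 to 0.33 on the log2 scale. These ratios show unequal differences of the genes and hold no test.

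LIFR and OSMR lie next to each other among the protein-coding genes of chromosome 5 in the RefSeq order of GRCh38.p14. Beyond OSMR, RICTOR, which encodes a subunit of the mTORC2 complex, differed by 0.17 ± 0.19 (SE; limma adjusted p 0.713), and FYB1 was near the lowest value, at 10.8 ± 1.30 in knockdown cells and 10.3 ± 0.52 in control cells (SD, n = 3 each). On the other side of LIFR, EGFLAM was dim, at 23.2 ± 3.56 in knockdown cells and 28.5 ± 2.89 in control cells. GDNF, the next gene, was not analysed here, and WDR70 after it differed by 0.30 ± 0.18 (SE; limma adjusted p 0.442).

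The ligand-binding chains overlapped between the groups. IL6R, which binds interleukin-6, was at 52.5, 58.7 and 60.4 in knockdown cells, against 53.2, 53.1 and 44.2 in control cells. CNTFR, which binds ciliary neurotrophic factor, was at 107, 118 and 106 in knockdown cells, against 114, 120.1 and 90.1 in control cells. For IL6R the lowest knockdown array lay within the control range and the others above it, and for CNTFR every knockdown array lay within it. The log2 differences were 0.19 for IL6R, with a 95% interval from -0.21 to 0.59, and 0.035 for CNTFR, with an interval from -0.38 to 0.45. The ligand LIF was close to the lowest value, at 18.8, 15.6 and 22.9 in knockdown cells, against 36.3, 10.8 and 11.7 in control cells. LIF was the 1 gene of the 10 below the filter and was not tested, and its control mean rested on scrambled replicate 1.

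Of the kinases, JAK1, which gp130 receptors depend on most, was at 859.7, 842 and 654 in knockdown cells, against 566, 749 and 735 in control cells. The groups overlapped, and the log2 difference was 0.20 ± 0.20 (SE; limma adjusted p 0.669). JAK2, which also binds these receptors, was at 82.4, 61.5 and 118 in knockdown cells, against 77, 70.6 and 77.4 in control cells. The JAK2 arrays with the SALL4 shRNA lay on both sides of the controls, with a mean log2 difference of 0.17 ± 0.23 (SE; limma adjusted p 0.770) that was -0.073 without SALL4 shRNA replicate 3.

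STAT3, the transcription factor at the end of the pathway, had the largest positive difference of the 10 genes. It was at 513, 638 and 428 in knockdown cells, against 324, 333 and 302 in control cells. The groups did not overlap, and the lowest knockdown array lay well above the highest control. The means were 526 ± 106 in knockdown cells and 320 ± 15.8 in control cells (SD, n = 3 each). The difference of the mean log2 values corresponds to 1.63-fold. The log2 difference of 0.70 ± 0.20 (SE) missed the threshold (limma adjusted p 0.0935), while limma with trend and robust settings gave an adjusted p of 0.0458. Those settings called 486 of 13325 genes, where the fit without them called 220. Under every other alternative that was run STAT3 did not pass, with a limma adjusted p from 0.0532 to 0.331. SOCS3, which STAT3 induces and which binds gp130 to stop signalling, was at 83.6, 78.3 and 87.8 in knockdown cells, against 58.5, 82.9 and 58.8 in control cells. Scrambled replicate 2 lay within the knockdown range, and the log2 difference of SOCS3 was 0.34 ± 0.20 (SE; limma adjusted p 0.426).

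Of the 8 genes other than LIFR that were in the fit, 0 passed in limma, against 1.65% of all genes. The smallest absolute log2 difference called for any gene was 0.79, larger than that of each of the 8. An unadjusted p under 0.05 in limma was given to 3 of the 8, IL6ST, OSMR and STAT3, where 16.8% of all genes had one. The same 3 genes, on the same arrays, had groups that did not overlap, with the knockdown higher. Of all genes in the fit, 11.5% did so in that direction and 22.2% in either. All 8 differences were positive, with a median of 0.27, where 52.3% of all genes in the fit had a positive one and their median was 0.018. Of the 8, CNTFR and JAK2 turned negative when single arrays were left out: CNTFR was at -0.013 without SALL4 shRNA replicate 2 and -0.091 without scrambled replicate 3, and JAK2 at -0.073 without SALL4 shRNA replicate 3. The estimates ranged from 0.035 for CNTFR to 0.70 for STAT3. The 95% intervals of IL6ST, OSMR and STAT3, which are not adjusted for the number of genes, reached from 0.14 to 1.01, from 0.020 to 0.91 and from 0.27 to 1.13.

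**Figure D2:**
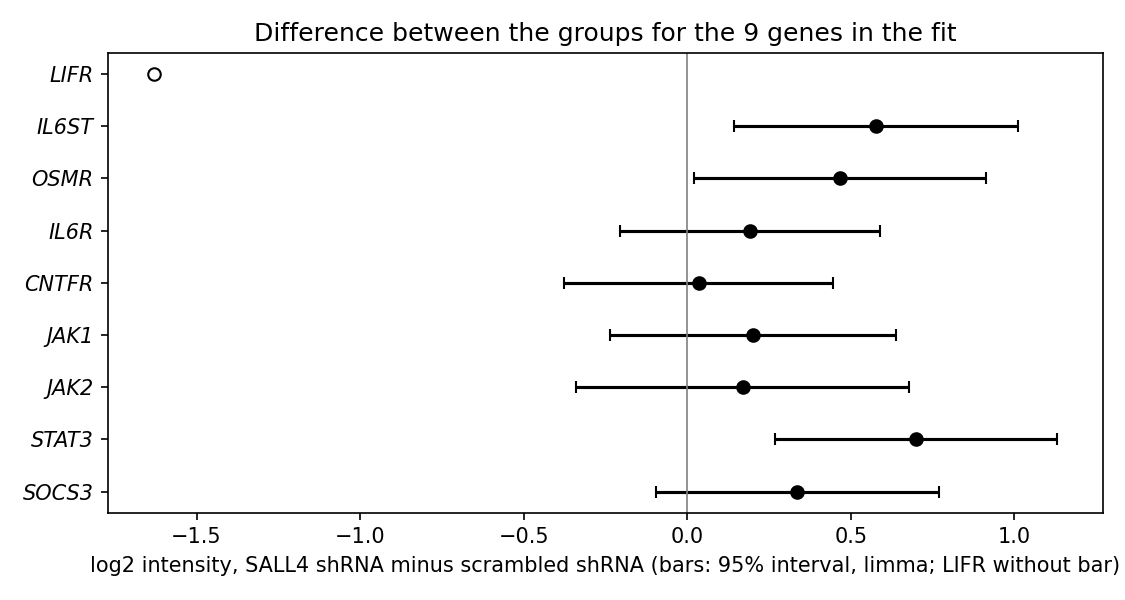
Log2 intensity, SALL4 shRNA minus scrambled shRNA, for the 9 genes in the fit; points are estimates and bars are 95% limma intervals over 3 arrays per group, not adjusted for the number of genes. LIFR (open point, -1.63) was chosen for its fall and has no interval; the other estimates lie between 0.035 and 0.70.

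Within the groups, some of the 10 genes varied together from array to array. The SALL4 shRNA array with the least LIFR, replicate 2, also had the least JAK2 and the most STAT3, and the array with the most LIFR, replicate 3, had the most JAK2 and the least STAT3. Over the 6 arrays, deviations from the group means correlated with those of LIFR at r = 0.996 for JAK2, and 3 of 13324 genes had a higher r. For STAT3 r was -0.96, and 63 genes had a lower one. For JAK1 it was -0.72, for IL6ST -0.41 and for CNTFR -0.37, and for OSMR, IL6R and SOCS3 it was 0.19, 0.12 and 0.072. These values describe 6 arrays that share their group means and rest mostly on the 3 knockdown arrays. The spread of LIFR over those 3 arrays was part of its choice, so the values and ranks are a description and hold no test. SALL4 shRNA replicate 2 stands apart over all genes, and the part of that array in the pattern was not tested.

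**Figure D3:**
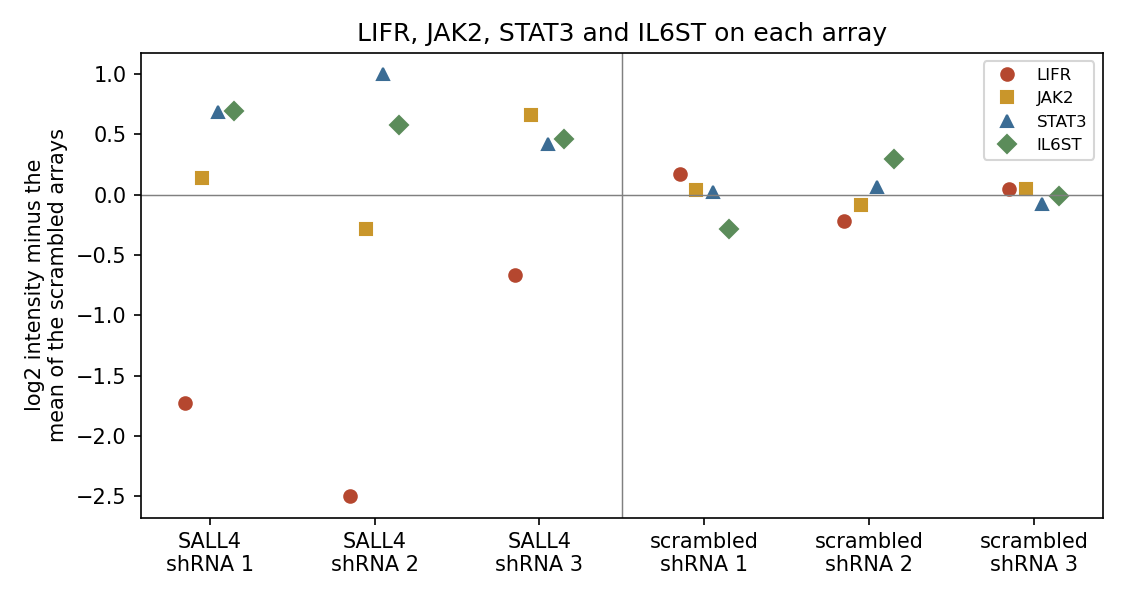
Log2 intensity of LIFR, JAK2, STAT3 and IL6ST on each array relative to the mean of the scrambled arrays. Among the SALL4 shRNA arrays LIFR lies at -1.73, -2.50 and -0.67 and STAT3 at 0.68, 0.999 and 0.42, while the scrambled arrays lie near 0.

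The genes with the pattern most like LIFR were named by Pearson r of log2 intensity over the 6 arrays. They were KPNA3, a nuclear import receptor gene (r = 0.999), the DNA translocase gene HLTF (r = 0.996), and MTIF2, LRIG3 and DRAM2 (r = 0.99 each). KPNA3 was at 435, 365 and 538 in knockdown cells, against 664, 610.2 and 630.1 in control cells, a log2 difference of -0.53. The differences of the 5 lay between -0.78 for MTIF2 and -0.33 for HLTF. Since r over the 6 arrays includes the fall for which LIFR was picked, their negative sign follows from how they were chosen, and they are given with no test. By deviations from the group means alone, the 5 most like LIFR were DPH6, KPNA3, AP1S3, JAK2 and TPMT, with r between 0.993 and 0.997. That r rests on the spread for which LIFR was picked, and it too is given with no test. An r above 0.95 was reached by 70 of 13324 genes over the arrays and by 96 by deviations.

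Other genes of the pathway, 96 in 7 lists, showed no call. Of the 83 measured here, 58 were in the fit and 0 passed in limma, also with trend and robust settings. An unadjusted p under 0.05 was given to 3 of the 58, where 16.8% of all genes had one. The median difference was 0.021, beside 0.018 for all genes. Of the 58 in the fit the groups did not overlap for 6 higher (10.3%) and 2 lower genes (3.45%), where 11.5% of all genes in the fit were higher and 10.8% lower in this way. Of the 25 below the filter, which were not tested, 6 were higher without overlap (24%) and 0 lower, where 4.45% of all genes below the filter were higher and 6.32% lower. Those 6 were OSM, IL31RA, IRF1, CRP, SERPINA3 and C3, named after their values were seen.

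**Figure D4:**
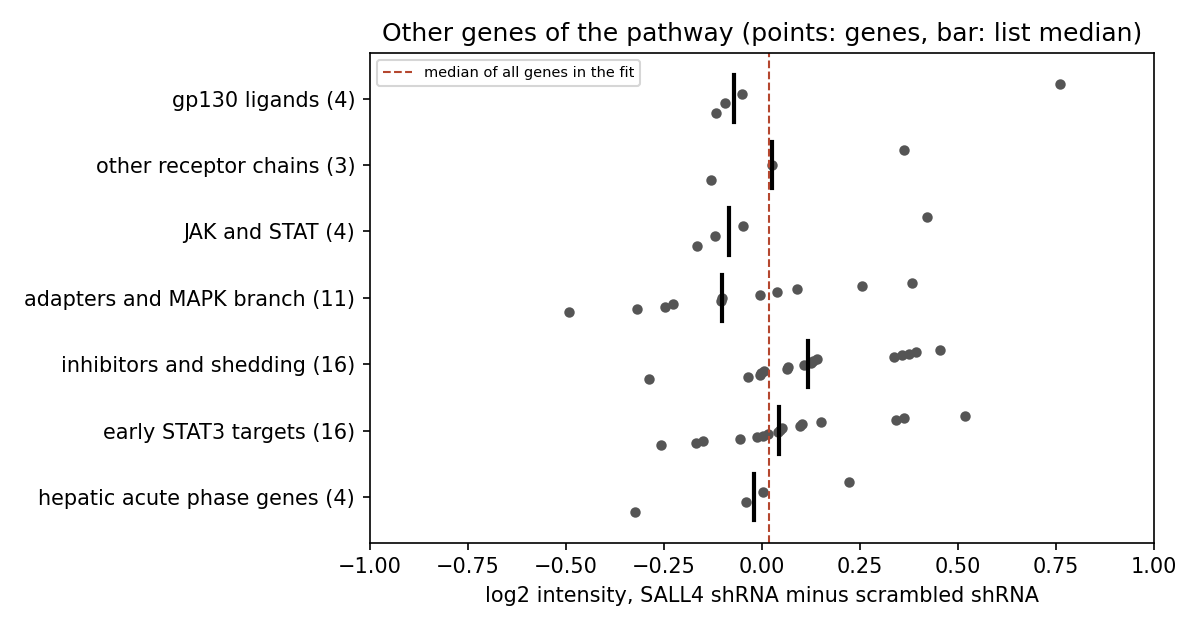
Log2 intensity, SALL4 shRNA minus scrambled shRNA, of the 58 other pathway genes in the fit, by list, with the number of genes in parentheses. Points are genes, black bars are list medians and the dashed line is the median of all genes, 0.018; list medians lie between -0.10 and 0.12.

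Among ligands, 0 of 4 in the fit passed. EBI3, the subunit of interleukin-27 that resembles a soluble receptor, was at 41.1, 56.3 and 37.7 in knockdown cells, against 19.9, 34.5 and 26.2 in control cells, a log2 difference of 0.76 ± 0.24 (SE; limma adjusted p 0.126). Its groups did not overlap. The control mean of EBI3, 26.9, lay below the filter level of 32, so the gene was in the fit only through its knockdown values. IL11 was at -0.052 ± 0.20 and the cardiotrophin gene CTF1 at -0.12 ± 0.26. IL6, named after its values were seen, was near the lowest value, at 12.5 ± 0.27 in knockdown cells and 12.5 ± 0.54 in control cells (SD, n = 3 each).

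Among other receptor chains, 0 of 3 passed. IL27RA, the specific chain of the interleukin-27 receptor, was at 115, 112 and 136 in knockdown cells, against 80.7, 102 and 101 in control cells, a log2 difference of 0.36 ± 0.19 (SE; limma adjusted p 0.365). Like EBI3 it was higher on every knockdown array. IL11RA was at -0.13 ± 0.18. Of 4 other JAK and STAT genes 0 passed, with STAT6, the interleukin-4 responsive factor, at 0.42 ± 0.23, STAT5A at -0.17 ± 0.18 and STAT5B at -0.049 ± 0.27.

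The branch from gp130 to MAP kinase had 11 genes in the fit, of which 0 passed, with a median of -0.10. PTPN11, which encodes the phosphatase SHP2 that docks on gp130, was at 1560, 972 and 1050 in knockdown cells, against 1660, 1806 and 1479 in control cells. SALL4 shRNA replicate 1 lay within the control range, and the log2 difference was -0.49 ± 0.22 (SE; limma adjusted p 0.275). The Ras exchange factor gene SOS1 was at -0.23 ± 0.19, and the adapter gene GAB1 at 0.38 ± 0.26.

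Inhibitors and sheddases had 16 genes in the fit, of which 0 passed, with 12 differences positive, 4 negative and a median of 0.12. PIAS1, an inhibitor of STAT DNA binding and SUMO ligase, was at 1131, 1213 and 1353 in knockdown cells, against 902, 888 and 901 in control cells. Its groups did not overlap, and the log2 difference was 0.46 ± 0.18 (SE; limma adjusted p 0.218). PIAS4 was at 0.39 ± 0.24. The other 3 genes of the list whose groups did not overlap, named after their values were seen, were PIAS3, a STAT3 inhibitor, at 0.38 ± 0.18, and the phosphatase genes PTPN2, at 0.36 ± 0.17, and PTPN1, at -0.29 ± 0.19. Without overlap, 3 of the 16 genes were higher and 1 was lower. Of all genes in the fit, 11.5% were higher and 10.8% lower in this way. ADAM10, a protease that sheds interleukin-6 receptor, was at 0.11 ± 0.18.

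Of 16 early targets of STAT3 in the fit 0 passed in limma, with 11 positive and 5 negative differences and a median of 0.043. HIF1A, the hypoxia factor, was at 871, 869 and 899 in knockdown cells, against 723, 740.4 and 599 in control cells, a log2 difference of 0.36 ± 0.18 (SE; limma adjusted p 0.338). The kinase gene PIM3 was at 0.52 ± 0.27, EGR1 at 0.045 ± 0.19 and the cyclin gene CCND1 at -0.057 ± 0.19. IRF1 lay below the filter and was at 28.9, 30.1 and 53.8 in knockdown cells, against 28.4, 16 and 10 in control cells.

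The acute phase genes of liver, the classical output of interleukin-6 in hepatocytes, were mostly dim in this line. Of 19 measured, 15 lay below the filter, and of the other 4, 0 passed. A2M, the protease inhibitor alpha-2-macroglobulin, was at 419, 524 and 427 in knockdown cells, against 568, 603 and 536 in control cells. The log2 difference of A2M was -0.32 ± 0.18 (SE) and the limma adjusted p was 0.410. Every knockdown array of A2M was below every control array, as for 10.8% of all genes in the fit. HAMP, which encodes hepcidin, was at 0.0014 ± 0.23, ITIH4 at 0.22 ± 0.20 and SERPINA1, the last of the 4 and named after its values were seen, at -0.042 ± 0.21. Below the filter, CRP, the C-reactive protein gene, was at 22.3, 20.4 and 19.6 in knockdown cells, against 17.2, 16.6 and 16.2 in control cells. SERPINA3 was at 25.2, 28.4 and 20.3 in knockdown cells, against 17.2, 14.8 and 16 in control cells. The complement gene C3 was at 27, 43 and 30.9 in knockdown cells, against 26.2, 17.9 and 24.7 in control cells. All 3 were dim and higher on every knockdown array than on any control array, and none was tested. They were named for this, and 4.45% of all genes below the filter were higher in this way. The groups of the other acute phase genes below the filter overlapped. Their differences had both signs, from -0.27 for LBP to 0.59 for SAA2.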

How the data were processed

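The deposited table holds 1 intensity per probe set for each of 6 arrays, on a linear scale. Per the submitters' processing notes the authors used RMA, a method of background correction, normalization and probe summary. Its version, and what was done after it, were not given in the sources used here. Between 15.5% and 16.9% of the deposited intensities of each array lie at the lowest value, 10, and array medians lie between 47.9 and 51.7. No pair of arrays was identical and no sample column was left unused. Log2 was taken here. Of 32319 probe sets, 19158 have 1 gene symbol in the platform annotation. For 19128 of these the Entrez identifier matched a RefSeq gene, whose symbol was used, whether or not it differed. Where a gene had several probe sets, that with the highest mean was used. Limma 3.58.1 in R 4.3.3 (lmFit, eBayes, two-sided) was run on the 13325 genes that averaged 5 or more on the log2 scale over all 6 arrays, a filter that does not use the groups. It was tested on simulated data, with shifts given to genes with a mean log2 of 6 or more. Of log2 shifts of 1 it recovered 53% and of shifts of 2 it recovered 96%, and 3 of 152 calls were false.

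The genes, lists and this filter were chosen with earlier results of these data known. Named genes are SALL4, the 10 genes, and per list those that passed, the 2 with the highest mean and the 2 with the largest difference; the 5 genes most like LIFR; and the 3 protein-coding genes on each side of LIFR, since no other neighbour was measured here. Marker genes and those the text says were named after their values were seen fall outside this rule. Precision is limited by the number of arrays: the smallest exact permutation p that 3 against 3 allow is 0.1. Alternatives were other filters, limma settings, normalizations and handling of probe sets, a replicate block and leaving out arrays.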

Additional observations from a re-analysis of the deposited data

How the results depend on the processing

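The differences of IL6ST, OSMR, IL6R, JAK1, STAT3 and SOCS3 stayed positive, and those of LIFR and SALL4 negative, under every alternative that was run. Over fits without arrays LIFR lay between -2.11 and -1.17, STAT3 between 0.51 and 0.84 and IL6ST between 0.44 and 0.72 on the log2 scale; under the other settings LIFR lay between -1.63 and -1.43. JAK2 lay between -0.073 and 0.42 and was negative without SALL4 shRNA replicate 3. CNTFR lay between -0.14 and 0.12; it was -0.013 without SALL4 shRNA replicate 2, -0.091 without scrambled replicate 3 and -0.14 without both. Of the 8 genes other than LIFR in the fit, limma called 0 under each alternative except trend and robust settings, where it was 1, STAT3. Those settings called 486 genes in all. The adjusted p of STAT3 lay between 0.0458 and 0.331 over all alternatives. The count for the 7 pathway lists was 0 throughout.

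The count over all genes, 220 as reported, depended on the filter and settings. It was 0 with no filter (2864 at an unadjusted p under 0.05, lowest adjusted p 0.0805), 40 without only the genes at the lowest value on all arrays, 341 with a minimum of 6, 454 with log2 of the value plus 20, 486 with trend and robust settings and 7 in a fit of all probe sets. It lay between 37 and 101 without 1 array and was 15 without scrambled replicate 3 and SALL4 shRNA replicate 2 together; these fits have fewer samples. SALL4 was at -1.30 with a limma adjusted p of 0.0946 with no filter and 0.0544 in the fit of all probe sets, and at -1.20 (0.0697) without those 2 arrays; without 1 array it lay between -1.37 and -1.20. With the replicate block the count was 37, SALL4 was at -1.30 and 0 of the 8 were called. Same-numbered arrays did not deviate together (r between -0.085 and 0.00037), and 0 of 6 arrays correlated best with their own number. With 3 arrays per group this check cannot exclude that same-numbered cultures were paired, and the labels give only the number. The cause of the other changes was not tested.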
